A study of Mus musculus with 12 samples.

Results

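The 6 genes described here encode the maternal proteins that lie beneath the oocyte membrane and in the cytoplasmic lattices. They are Ooep (Floped), Khdc3 (Filia), Nlrp5 (Mater), Tle6, Zbed3 and Padi6, and they were chosen by name among the 23230 genes of the expression table, where Khdc3 is listed under its older symbol 2410004A20Rik. All 6 were among the 11502 genes tested, which reached 1 FPKM in some library. FPKM counts sequenced fragments per kilobase of exon relative to all mapped fragments, so levels of different genes can be set side by side. Poly(A)-primed Smart-seq2 libraries of 10 oocytes each were made from wild-type (WT) and Zar1/2-null mice, 2 libraries for each genotype and stage. The null females lacked both Zar1 and its relative Zar2, listed as Zar1l, in every tissue. Both alleles were made with CRISPR-Cas9, and all mice had a mixed C57BL6/ICR background. Growing oocytes came from unprimed females whose age is given as 13.5 days in the labels. Fully grown germinal vesicle (GV) oocytes came from females of 21 days, collected 44 h after pregnant mare serum gonadotropin (PMSG). Oocytes labelled MII were flushed from the oviducts 16 h after human chorionic gonadotropin (hCG). The labels give no age or priming for these females. The study's methods describe superovulated females of 21 days or slightly older, given PMSG 44 h before the hCG. According to the study's own microscopy the ovulated null oocytes had not reached a normal MII stage. At this stage the genotypes therefore also differ in meiotic progress, and both differences cannot be told apart in these libraries. The authors held WT oocytes in meiosis I with nocodazole and report that decay of selected mRNAs, measured by RT-qPCR, was not affected. Libraries of such oocytes are not part of these data. Nothing in the labels says that the paired libraries came from different females, so p-values measure the spread between these libraries, which may be technical.

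Oocytes build the subcortical maternal complex while they grow. It forms a layer under the plasma membrane that is lost from regions of contact between blastomeres, and embryos from mothers that lack its core members stop at early cleavage. OOEP and KHDC3 carry an atypical KH domain, NLRP5 carries a leucine-rich repeat domain, and TLE6 is a shortened relative of the Groucho corepressors. ZBED3 joins the complex and takes part in placing the spindle. PADI6, a member of the peptidylarginine deiminase family, is needed for the lattices, the fibres that fill the mouse oocyte cytoplasm and bind ribosomal components. Meiotic maturation proceeds without transcription, so that mRNA levels then change by decay and by altered poly(A) tails.

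The loci are given for the mm9 genome, with which the table was made, from GENCODE vM1. Ooep lies on the minus strand at chr9:78223916-78226532 with 3 exons, and Khdc3 on the plus strand of the same chromosome at chr9:72949643-72952250, also with 3 exons. Nlrp5 lies at chr7:24170908-24226941 (plus strand, 18 exons), Tle6 at chr10:81053649-81063818 (minus strand, 14 exons), Padi6 at chr4:140283270-140298558 (minus strand, 16 exons) and Zbed3 at chr13:96095192-96107796 (plus strand, 2 exons). Exons of Khdc3 overlap the annotated readthrough gene Gm20509, and the small RNA genes Snora47 and SNORA68 lie within the Zbed3 intron. The 3′ untranslated regions (UTRs) were short in Nlrp5 (108 bases), Tle6 (130 bases), Padi6 (221 bases) and Khdc3 (246 bases) and long in Zbed3 (1085 bases) and Ooep (1446 bases), against a median of 906 bases over 9884 kept genes with a matched transcript and at least 100 bases of 3′ UTR. The 3′ end of an oocyte mRNA carries the polyadenylation hexamer and, in some messages, cytoplasmic polyadenylation elements, the U-rich letters through which stored mRNAs are readenylated during maturation. The last 30 bases of each annotated transcript are shown so that these letters can be compared, and their bearing on mRNA levels was not tested. Capitals mark the hexamer AATAAA, its variant ATTAAA, the element TTTTAT or the element TTTTAAT on the coding strand:
Ooep, chr9:78223916-78223945, minus strand: aactcaggaccacaggctatgagtagcata
Khdc3, chr9:72952216-72952245, plus strand: ttaaagtattctAATAAAaaaaaaattgca
Nlrp5, chr7:24226911-24226940, plus strand: agaatgaAATAAAcacagcatttagaaaag
Tle6, chr10:81053650-81053679, minus strand: agttgcgtgtAATAAAacaattgaaatggc
Padi6, chr4:140283270-140283299, minus strand: agagccAATAAAgcatggtattctgaatgt
Zbed3, chr13:96107767-96107796, plus strand: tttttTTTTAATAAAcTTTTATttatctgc

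AATAAA began 18 to 24 bases before the annotated end in 5 of the 6 transcripts, all but Ooep. No hexamer was found in the last 100 bases of the annotated Ooep end, and the nearest ATTAAA began 621 bases before it. Zbed3 alone held the letters of a cytoplasmic polyadenylation element in the last 100 bases, with TTTTAAT starting 25 bases before the end, where it overlaps the hexamer, and TTTTAT starting 14 bases before it. The whole Zbed3 3′ UTR held 5 such matches, and those of the other 5 genes held 0. Of the 9884 kept genes, 20.1% held at least 1 of both elements in the last 100 bases, 1.23% held both, and 60.5% held at least 1 anywhere in the 3′ UTR. The 100-base window was chosen after these sequences had been seen, and a match of letters is not a measured site.

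The libraries were those of oocytes. The summed level of 12 oocyte markers ranged from 5137 to 22063 FPKM, and 18 granulosa and cumulus markers summed to between 67.4 and 199 FPKM, mostly Serpine2 and Cyp19a1, with Ptx3 listed at 0 in all libraries and Amh at 0 in 5 of the 6 groups. The granulosa sum was lower in null than in WT growing oocytes (149 to 152 against 194 to 199 FPKM) and GV oocytes (78.2 to 106 against 115 to 149 FPKM), and higher in null than in WT MII oocytes (81.4 to 88.6 against 67.4 to 72.7 FPKM), and its part in the results was not tested. Zar1l was at 639 and 644 FPKM in WT growing libraries against 17.5 and 13.2 in null ones, and it was lower in null oocytes at all 3 stages. Zar1, whose null allele carries a small deletion and a stop codon, still gave reads, with 603 and 725 FPKM in WT and 407 and 460 in null growing oocytes, and at MII with 83.6 and 72.4 in WT and 190 and 194 in null. The authors multiplied each library by a factor from its share of ERCC spike-in reads, which lay between 0.225 in a WT MII library and 1 in the WT growing libraries. Relative sequencing depth, recovered from the steps between low values, differed little, from 0.914 to 1.24 times that of the first WT growing library. With these factors the median log2 change of all 11502 genes was -1.28 from GV to MII in WT and -0.72 in null, -0.29 and -0.50 from growing to GV, and -0.16, -0.38 and 0.06 for null against WT in growing, GV and MII oocytes. In libraries of counted oocytes, fewer intact oocytes and less RNA per oocyte cannot be told apart. Changes are therefore read beside these medians and beside the same fit without the ERCC factors.

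All 6 genes were among the most abundant transcripts of growing oocytes. Ooep was at 2280 and 2227 FPKM in the WT growing libraries, Padi6 at 1983 and 2415, and Zbed3 at 1749 and 2150. These 3 overlapped in level, whereas Tle6 (894 and 1272 FPKM), Khdc3 (788 and 845) and Nlrp5 (414 and 448) followed in that order without overlap. Nlrp5, the least abundant of the 6, still ranked 277 and 253 among 11502 genes, and the 6 together made 1.27 and 1.48% of the summed FPKM of a WT growing library.

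**Figure D1:**
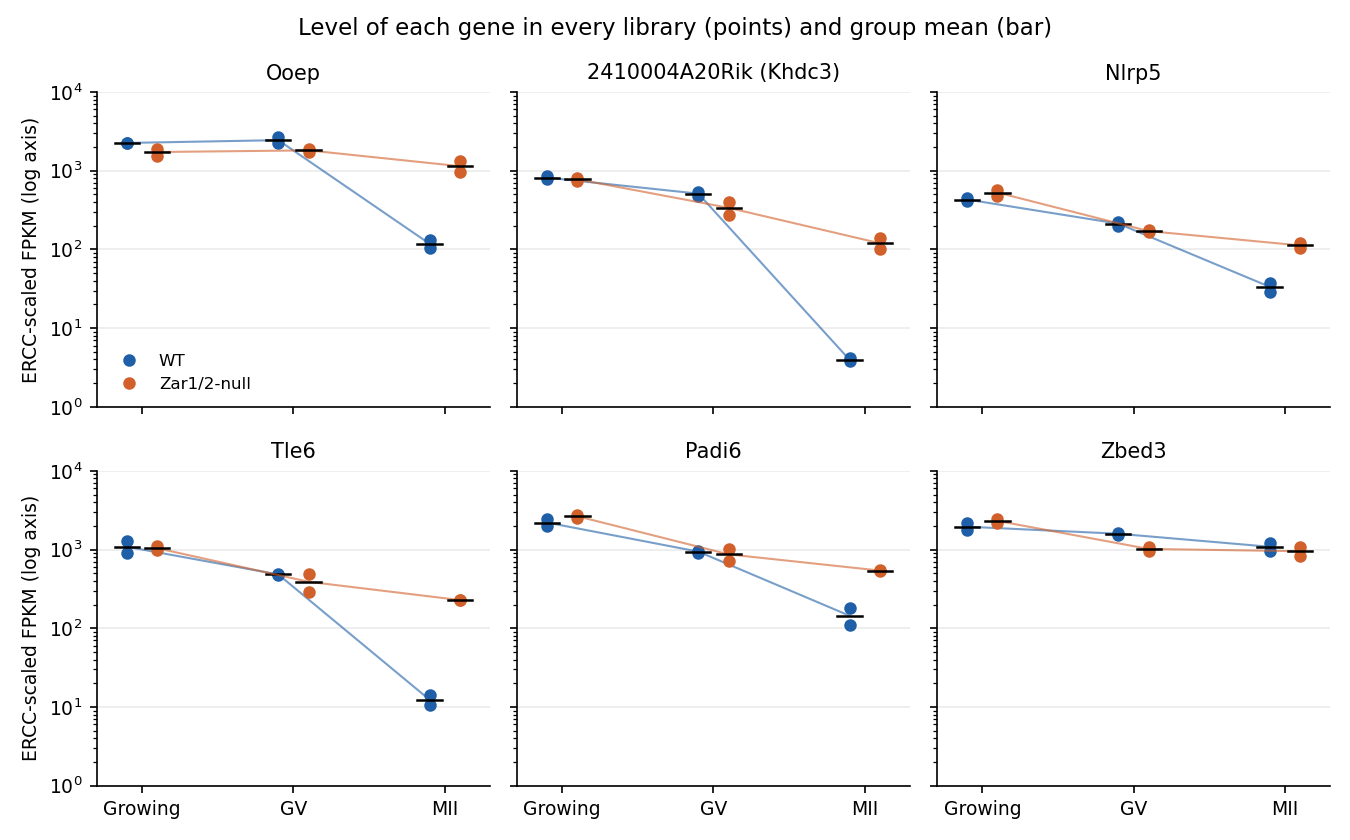
ERCC-scaled FPKM (log axis) of the 6 genes in each of the 12 libraries, by stage on the horizontal axis. Points are libraries, black bars are means of 2 libraries, and lines join the means of a genotype. In MII the null points of all genes but Zbed3 lie above the WT points, while Zbed3 lies between 829 and 1197 FPKM in both genotypes.

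In growing oocytes none of the 6 differed between null and WT by the test (limma on log2(FPKM + 1) with all 12 libraries, Benjamini-Hochberg over 11502 genes), although 10.6% of all genes were higher and 24.4% lower in null growing oocytes by that test. Ooep was at 1898 and 1559 FPKM in the null libraries, below both WT libraries, with a log2 change of -0.39 (SE 0.20, adjusted p = 0.15), and it passed when the replicate number, to whose WT growing library each factor refers, was added as a block (limma adjusted p = 0.028). Nlrp5 was at 482 and 574 FPKM in null, above both WT libraries, with a log2 change of 0.29 (SE 0.17, limma adjusted p = 0.22). Both fall short of the threshold despite libraries that do not overlap. How many of all genes show no overlap was not counted, at this stage or later ones. Padi6 (2518 and 2777 FPKM) and Zbed3 (2154 and 2464) were also above their WT libraries, and Khdc3 (811 and 744) and Tle6 (973 and 1105) overlapped them. The 95% intervals of the 6 changes reached from -0.83 at the lowest (Ooep) to 0.79 at the highest (Padi6). Without the ERCC factors 14.9% of all genes were called higher and 12.3% lower, and Nlrp5 was called higher, with a log2 change of 0.58 (limma adjusted p = 0.033), while the values of Khdc3 and Tle6 turned from slightly below to slightly above WT.

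Between the growing and the GV stage, 4 of the 6 genes fell in WT oocytes, against 28.7% of all genes called lower and 2.77% called higher. Padi6 fell to 966 and 914 FPKM, a log2 change of -1.22 (SE 0.24, limma adjusted p = 0.0051). Tle6 fell to 488 and 476 FPKM and Nlrp5 to 226 and 199, with log2 changes of -1.14 (SE 0.25) and -1.02 (SE 0.17). Khdc3 fell to 542 and 481 FPKM, a change of -0.68 (SE 0.21, limma adjusted p = 0.030). These 4 changes were all below the median change of all genes. Ooep was at 2646 and 2244 FPKM in WT GV oocytes, which overlaps its growing level. There it was the most abundant of the 6, without overlap. Zbed3, at 1538 and 1634 FPKM, lay below its growing level by a log2 change of -0.29 that did not pass the test (SE 0.19, limma adjusted p = 0.25). Without the ERCC factors, under which 3.66% of all genes rose and 3.23% fell, only Padi6 still passed among the 6, with a change of -0.83 (adjusted p = 0.046). The Khdc3 call was lost with any 1 of the 4 libraries left out (adjusted p of 0.057 to 0.17), that of Tle6 without WT GV library 2 or WT growing library 2 (0.063 and 0.078) and that of Padi6 without WT growing library 2 (0.051).

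In null oocytes 5 of the 6 fell over the same interval, against 55.9% of all genes called lower and 4.76% called higher. Nlrp5 fell to 177 and 165 FPKM (log2 change -1.62, SE 0.17) and Padi6 to 717 and 1019 (-1.63, SE 0.24), both 3.09- and 3.05-fold and so just past the 3-fold limit of mean FPKM that the study used, which 7.21% of all genes passed downward. Tle6 fell to 291 and 488 FPKM (-1.46, SE 0.25), Khdc3 to 273 and 403 (-1.23, SE 0.21) and Zbed3 to 946 and 1088 (-1.18, SE 0.19), with limma adjusted p-values of 0.00053, 0.00049 and 0.00037. Ooep, at 1899 and 1727 FPKM, overlapped its null growing level (log2 change 0.07, limma adjusted p = 0.77). The same 5 genes passed the test without the ERCC factors, and Ooep was then called higher (0.63, limma adjusted p = 0.0085), in a fit that called 14.3% of all genes higher and 21.3% lower. With equal medians the Zbed3 fall was lost (-0.51, adjusted p = 0.066). Zbed3 was the only member whose growth-stage change differed between the genotypes, by -0.89 on the log2 scale (SE 0.27, limma adjusted p = 0.049), where 11.3% of all genes had a more negative and 2.58% a more positive change in null. That call stood at the threshold and was lost without the ERCC factors (-0.73, adjusted p = 0.17), with a pseudocount of 0.1 FPKM (adjusted p = 0.063), under 5 other settings (0.059 to 0.28) and with any 1 of the 12 libraries but null MII 1 or 2 left out (0.059 to 0.18).

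At the GV stage 2 of the 6 genes were lower in null than in WT oocytes, against 40.6% of all genes called lower and 2.83% called higher. The 2 were Khdc3, with a log2 change of -0.62 (SE 0.21, limma adjusted p = 0.030), and Zbed3, with -0.64 (SE 0.19, limma adjusted p = 0.018). In both, the 2 null libraries lay below the 2 WT libraries. Ooep and Nlrp5 also lay below without overlap but did not pass, with log2 changes of -0.43 and -0.31 (limma adjusted p = 0.0997 and 0.16). Ooep was called lower, with the replicate number as a block (adjusted p = 0.016) and with the 2 factors of a group averaged (0.040). Tle6 and Padi6 overlapped between the genotypes. The median of the 6 changes was -0.39 beside -0.38 over all genes. Without the ERCC factors 7.19% of all genes were called higher and 13.5% lower, none of the 6 differed, and the values of Ooep, Nlrp5, Tle6 and Padi6 turned positive, between 0.03 and 0.32. Both calls were also lost without WT GV library 1 (adjusted p of 0.16 for Khdc3 and 0.069 for Zbed3), WT GV library 2 (0.057 and 0.077) or null GV library 1 (0.23 and 0.11).

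During maturation of WT oocytes 5 of the 6 messages fell steeply while Zbed3 remained abundant. Khdc3 was at 542 and 481 FPKM in WT GV oocytes and at 3.78 and 4.15 in WT MII oocytes, a 129-fold fall. Tle6 fell from 488 and 476 to 10.7 and 14.1 FPKM, 39.0-fold, and Ooep from 2646 and 2244 to 131 and 105 FPKM, 20.7-fold. Padi6 fell from 966 and 914 to 109 and 179 FPKM, 6.52-fold, and Nlrp5 from 226 and 199 to 29.2 and 38.0 FPKM, 6.34-fold. Zbed3 fell from 1538 and 1634 to 971 and 1197 FPKM, 1.46-fold. The fold differences thus spanned from 1.46 to 129 among transcripts whose proteins act in a shared structure. All 6 passed the test downward, with log2 changes of -6.69 (SE 0.21) for Khdc3, -5.19 (SE 0.25) for Tle6, -4.36 (SE 0.20) for Ooep, -2.74 (SE 0.24) for Padi6, -2.64 (SE 0.17) for Nlrp5 and -0.56 (SE 0.19, limma adjusted p = 0.015) for Zbed3. As 93.4% of all genes were called lower and 0.104% higher, the call itself says little of these genes, and their places among all changes are given. Khdc3 stood 67th from the bottom of 11502 changes, Tle6 287th, Ooep 614th, Padi6 2081st and Nlrp5 2249th, while Zbed3 stood 1407th from the top. Abundant genes fell further than the median of -1.28 over all genes. Their median was -2.06 over 4291 matched genes of at least 10 FPKM in WT GV oocytes, leaving out 62 with both TTTTAT and TTTTAAT in the last 100 bases. The changes of Padi6 and Nlrp5 lay nearer to -2.06 than to -1.28. Of the 6, 5 fell more than 3-fold in mean FPKM, as did 44.2% of all genes.

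The direction for Zbed3 depends on the ERCC factors. Without them 19.7% of all genes were called higher and 47.6% lower from GV to MII in WT, and Zbed3 was called higher, with a log2 change of 1.199 (SE 0.20, limma adjusted p = 0.00029). With all library medians set equal it was 1.94 higher (adjusted p = 4.5e-06), and Nlrp5 and Padi6 no longer passed (-0.18 and -0.25, adjusted p = 0.33 and 0.28). Khdc3, Tle6 and Ooep were called lower under all 3 scalings. The Zbed3 fall on the ERCC scale also lost its call with no filter on low values (adjusted p = 0.076), with only the 4 libraries compared in the fit (0.079), and without WT MII library 1 (-0.40, adjusted p = 0.12) or WT GV library 2 (-0.51, adjusted p = 0.069).

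**Figure D2:**
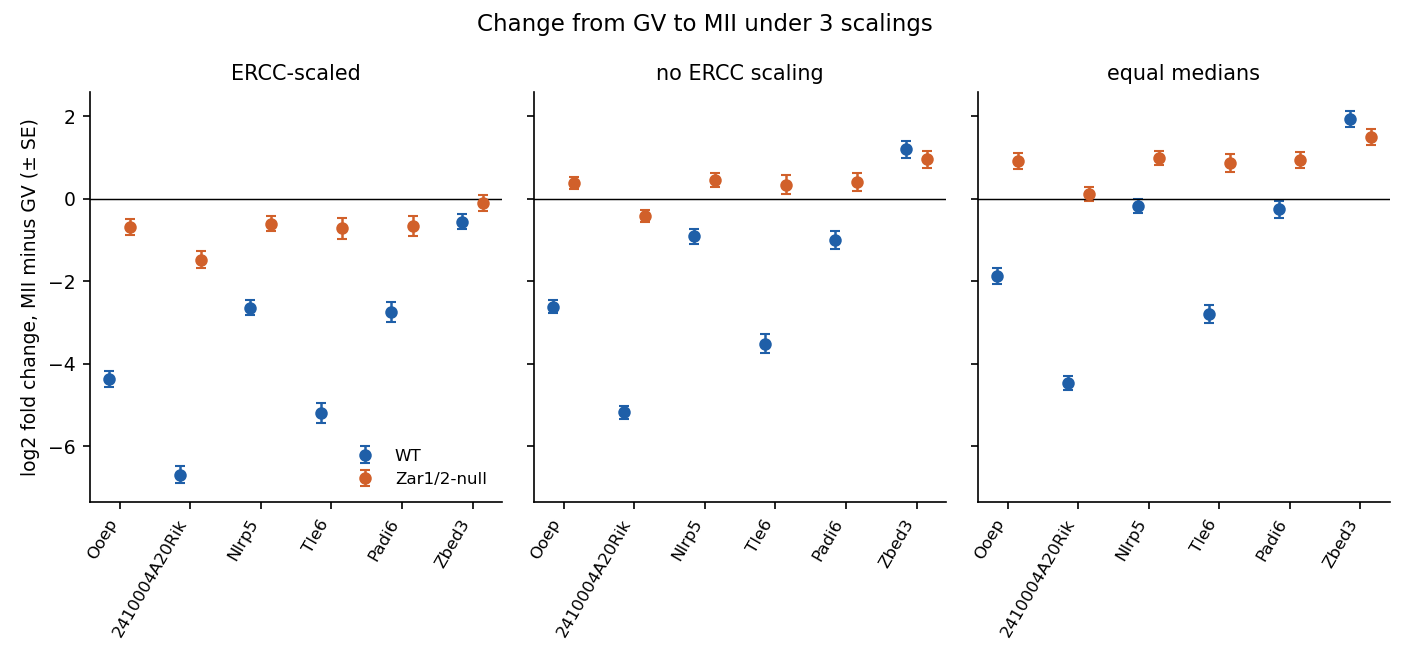
Log2 fold change from GV to MII (vertical axis, points with SE) of the 6 genes in WT and null oocytes, with the ERCC factors of the authors, without them, and with library medians set equal. The null points of Ooep, 2410004A20Rik (Khdc3), Nlrp5, Tle6 and Padi6 lie above the WT points in each panel, and the Zbed3 points lie below 0 in the left panel only.

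In Zar1/2-null oocytes 5 of the 6 messages stood above their WT levels after ovulation. Ooep was at 1329 and 955 FPKM in null MII oocytes, Padi6 at 533 and 548, and Tle6 at 229 and 227. Khdc3 was at 138 and 102 FPKM and Nlrp5 at 105 and 119. Every null MII library stood above every WT MII library for these 5 genes. The share of all genes whose libraries separate in this way was not counted. Zbed3 was at 829 and 1073 FPKM, overlapping the WT MII range. Compared with null GV oocytes 5 of the 6 were called lower, against 68.7% of all genes called lower and 0.209% higher: Khdc3 by -1.48 on the log2 scale (SE 0.21), Tle6 by -0.72, Ooep by -0.68, Padi6 by -0.66 and Nlrp5 by -0.60 (limma adjusted p between 5.7e-05 and 0.027). None of the 6 passed the 3-fold limit here, which 27.5% of all genes did. Khdc3 fell by more than the median change of all genes, and the other 4 by about that median or less. Abundant genes fell further. The median was -1.22 over 4291 matched genes of at least 10 FPKM in WT GV oocytes, leaving out 62 with both TTTTAT and TTTTAAT in the last 100 bases. Khdc3 fell by more than that value and the other 4 by less. When the ERCC factors were divided out, so that 19.5% of all genes rose and 40.5% fell, Khdc3 remained lower (-0.42, adjusted p = 0.032) and the other 5 turned to positive values, with Nlrp5 (0.45, adjusted p = 0.045) and Zbed3 (0.96, adjusted p = 0.0018) called higher. The calls of Tle6 and Padi6 on the ERCC scale were lost without null GV library 2 (adjusted p of 0.23 and 0.22) or either null MII library (0.068 to 0.086), that of Nlrp5 without null MII library 1 (0.055), and that of Ooep without null GV library 1 (0.058) or null MII library 2 (0.092). In values of mean FPKM, leaving out null GV library 1 or null MII library 1 took Khdc3 past the 3-fold limit.

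Set against WT at MII, 5 of the 6 genes were higher in null oocytes, against 21.5% of all genes called higher and 10.3% lower. Khdc3 was 30.2-fold higher (log2 change 4.59, SE 0.21), Tle6 18.5-fold (4.11, SE 0.25) and Ooep 9.67-fold (3.25, SE 0.20), with limma adjusted p-values of 1.9e-08, 2.1e-07 and 2.2e-07. Padi6 was 3.75-fold higher (1.94, SE 0.24, limma adjusted p = 7.0e-05) and Nlrp5 3.35-fold (1.72, SE 0.17, limma adjusted p = 1.3e-05). All 5 passed the 3-fold limit, as 7.49% of all genes did, but Nlrp5 narrowly. Nlrp5 fell short of it without the ERCC factors (means of 423 in null and 148 in WT) and without WT MII library 1 (112 against 38.0 FPKM), which left 4 genes past the limit in each case. Zbed3 was 1.14-fold lower in null (log2 change -0.19, 95% interval -0.61 to 0.22, limma adjusted p = 0.52). With 2 libraries against 2, an exact permutation test of any 1 gene cannot go below p = 0.333. The 5 calls held with each library left out in turn and under all 3 scalings, with log2 changes of 1.51 to 4.59 without the ERCC factors, where 24.6% of all genes were called higher and 23.4% lower. Zbed3 was called lower in null with equal medians (-0.56, adjusted p = 0.031) and under no other scaling. Since oligo(dT) primes the reverse transcription, a difference in the number of molecules and a difference in poly(A) tail cannot be told apart here.

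**Figure D3:**
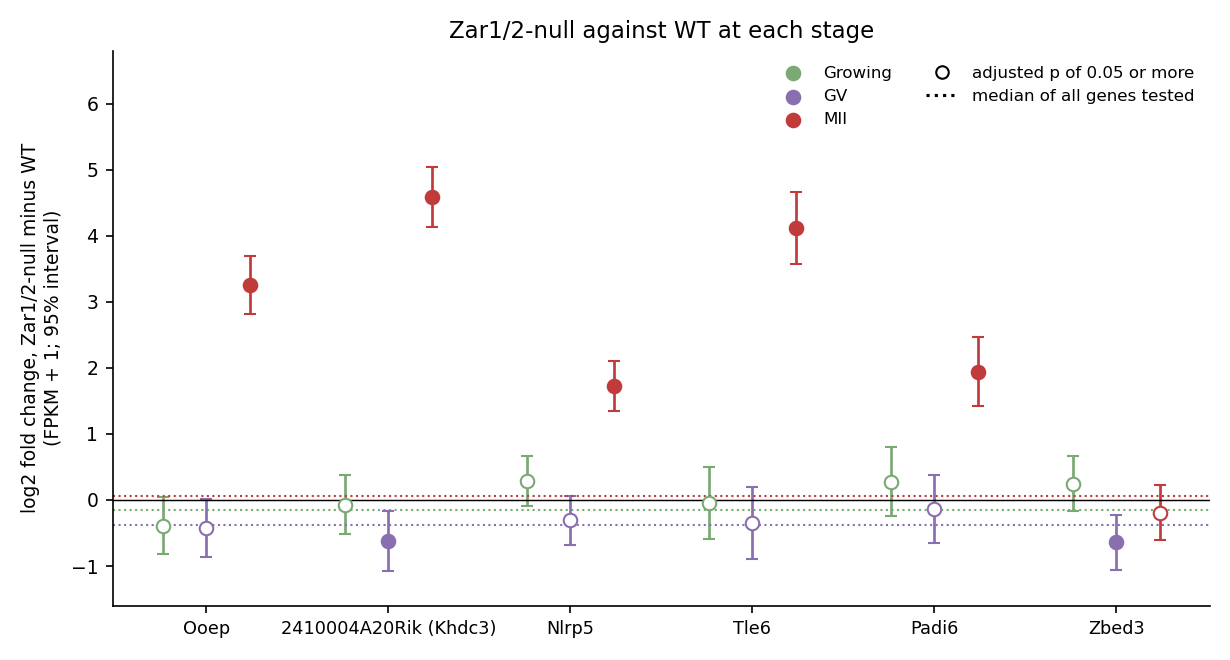
Log2 fold change of null against WT oocytes (vertical axis, with 95% interval) for the 6 genes at the growing, GV and MII stages. Filled points passed the test, open points did not, and dotted lines mark the median of all 11502 genes at each stage. The MII points of 5 genes lie between 1.72 and 4.59, and that of Zbed3 at -0.19.

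The genotype effect changed between GV and MII in the same 5 genes when the difference itself was tested. The change from GV to MII was less negative in null by 5.21 on the log2 scale for Khdc3 (SE 0.29), 4.47 for Tle6 (SE 0.35), 3.68 for Ooep (SE 0.28), 2.08 for Padi6 (SE 0.34) and 2.03 for Nlrp5 (SE 0.24), with limma adjusted p-values between 2.4e-07 and 0.00082. Of all genes, 33.9% had a less negative and 0.643% a more negative change in null, and the median was 0.48. These shares were 15.1 and 6.46% without the ERCC factors, and the 5 genes passed again, with values of 1.37 to 4.75. For Zbed3 the difference was 0.45 (SE 0.27, 95% interval -0.14 to 1.04, limma adjusted p = 0.21), and its sign turned without the ERCC factors (-0.24, adjusted p = 0.61). Its interval lay below those of the other 5, the lowest of which began at 1.34 (Padi6), but the genes were not tested against each other.

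Shares and ranks within a library do not depend on its scaling factor, and they showed the same divergence between Zbed3 and its partners. Zbed3 made 21.6 and 22.98% of the summed FPKM of the 6 genes in WT growing libraries, 24.01 and 27.5% in WT GV libraries, and 77.4 and 77.9% in WT MII libraries. In null MII libraries it made 26.2 and 35.5%, close to its share at earlier stages. Khdc3 moved the other way, from 8.46 and 8.08% in WT GV to 0.301 and 0.270% in WT MII, against 4.36 and 3.37% in null MII. Tle6 moved from 7.62 and 7.9998% to 0.849 and 0.914% in WT MII, and to 7.24 and 7.52% in null MII. The null MII share of Tle6 was thus near that of WT GV oocytes. For each Khdc3 fragment per kilobase there were 2.84 and 3.40 of Zbed3 in WT GV libraries, 257 and 289 in WT MII libraries, and 6.01 and 10.5 in null MII libraries. By rank among 11502 genes, Khdc3 moved from places 190 and 186 in WT GV to 3149 and 3139 in WT MII, and stood at 264 and 311 in null MII. Ooep moved from 17 and 12 to 149 and 170, and stood at 19 and 23 in null MII. Zbed3 rose in rank during WT maturation, from places 37 and 28 to 15 and 9, and stood at 29 and 20 in null MII. Over all 6 genes together the share of the summed library FPKM differed much less, at 0.979 and 1.27% in WT MII and 1.51 and 1.72% in null MII.

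**Figure D4:**
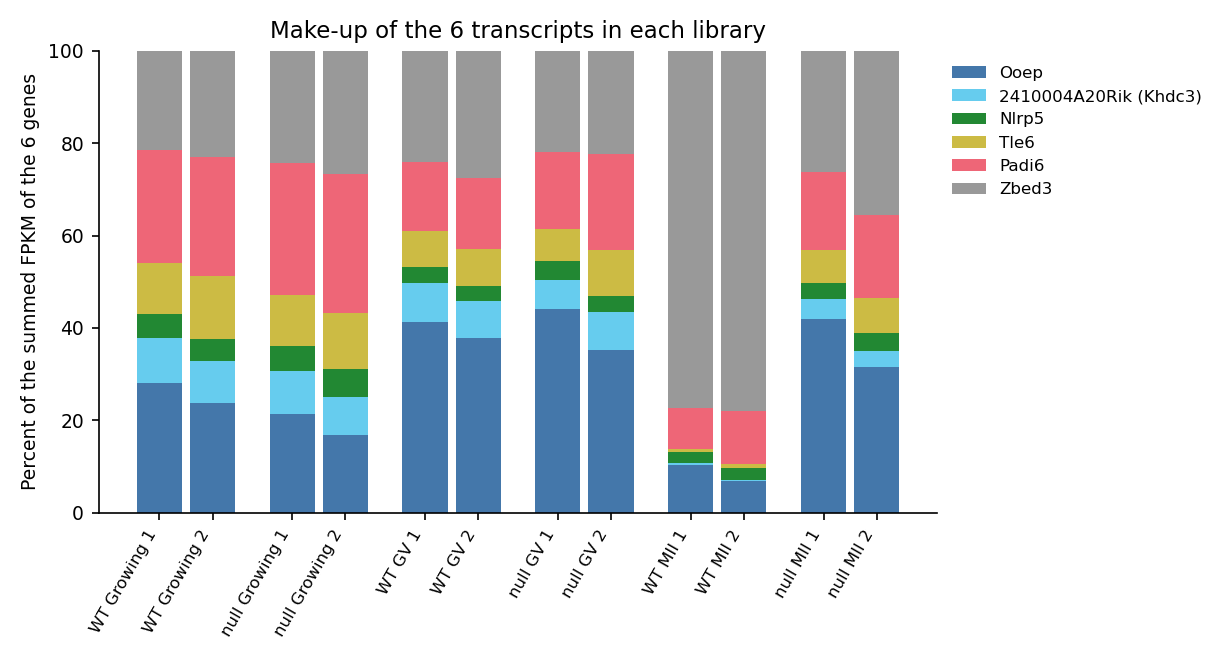
Percent of the summed FPKM of the 6 genes (vertical axis) that each gene made in each of the 12 libraries. Zbed3 makes about 77 to 78% in both WT MII libraries and between 21.6 and 35.5% in every other library.

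Other genes listed with the complex moved alongside in part. Of 7 genes whose products are reported at the complex or the lattices, 5 were higher in null than in WT MII oocytes and 0 lower, against 21.5 and 10.3% of all genes. Nlrp14, an NLR-family gene of the oocyte, was at 107 and 113 FPKM in WT and at 541 and 491 in null MII, a log2 change of 2.22 (SE 0.18). Ybx2, which encodes the mRNA-stabilising protein MSY2, was at 0.982 and 1.53 FPKM in WT and at 11.6 and 11.9 in null MII (2.51, SE 0.22). Its WT values are near 1 FPKM. The study reports less MSY2 protein in null GV oocytes, and no difference in its mRNA by RT-qPCR. Cfl1 (cofilin), Nlrp2 and Uhrf1 were the other 3, with log2 changes of 1.70, 1.39 and 0.92. Nlrp4f (233 and 248 against 181 and 165 FPKM) and the ubiquitin-conjugating enzyme gene Ube2d3 (406 and 283 against 337 and 289 FPKM) did not pass, and their values lay with Zbed3, below 0. The median over the 7 was 1.39, beside 2.60 over the 6 genes described here and 0.06 over all genes. At the GV stage 2 of the 7 were lower and 0 higher in null, against 40.6 and 2.83% of all genes. In growing oocytes 0 passed, where 24.4% of all genes were lower and 10.6% higher.

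Relatives by protein family ranged from abundant to nearly silent genes. Dppa5a, a KH-domain gene whose locus lies next to Ooep at chr9:78214859-78215984, was at 2018 and 1750 FPKM in WT GV, 8.15 and 10.3 in WT MII and 1523 and 1073 in null MII oocytes, a log2 change of 6.97 between genotypes at MII (SE 0.20, limma adjusted p = 9.8e-10). Khdc1b was also higher in null MII oocytes (0.71, SE 0.24, limma adjusted p = 0.039), and Khdc1a did not pass. Khdc1c went the other way at every stage, with 41.4 and 38.7 FPKM in WT and 20.5 and 14.4 in null growing oocytes, 30.4 and 18.4 against 0.507 and 1.08 at GV, and 7.63 and 6.06 against 0.835 and 1.18 at MII. Thus 2 of these 4 KH-domain genes were higher and 1 lower in null at MII, against 21.5 and 10.3% of all genes. Padi1 to Padi4, the enzymes to which PADI6 is related, did not exceed 1.64 FPKM in any library, and Tle1 to Tle4 and Aes did not exceed 14.4 FPKM. Of these relatives Aes was the only gene called different at MII, at 0.134 and 0.136 FPKM in WT and 0.690 and 0.709 in null, all below 1 FPKM. Of the ZBED relatives, Zbed4 was at 2.35 to 7.06 FPKM in growing and GV oocytes, and Zbed6 did not exceed 0.111.

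Genes of the transcription factors that act upstream in the growing oocyte, and other maternal-effect genes, gave a mixed picture at MII. Figla, whose product binds E-boxes in oocyte promoters, was at 0.276 and 0.687 FPKM in WT and 22.1 and 12.1 in null MII oocytes (log2 change 3.57, SE 0.24). Sohlh2 and Nobox were also higher in null (1.49 and 0.92, limma adjusted p = 9.9e-05 and 0.042), so 3 of the 4 kept genes of this list were higher, and Lhx8 did not pass. Among 15 other maternal-effect genes 4 were higher and 3 lower in null MII oocytes, near the 21.5 and 10.3% of all genes, with a median log2 change of 0.12. The nuclear chaperone gene Npm2 was at 162 and 175 FPKM in WT and 692 and 484 in null (1.78, SE 0.18), and Ube2a, Dnmt1 and Bcas2 were higher by 0.96, 0.88 and 0.49. Ctcf, Atg5 and Zfp57 were lower, by log2 changes of -1.18, -0.81 and -0.75. At the GV stage 9 of the 15 were lower in null and 0 higher, against 40.6 and 2.83% of all genes, and in growing oocytes 2 were lower and 1 higher, against 24.4 and 10.6%.

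**Figure D5:**
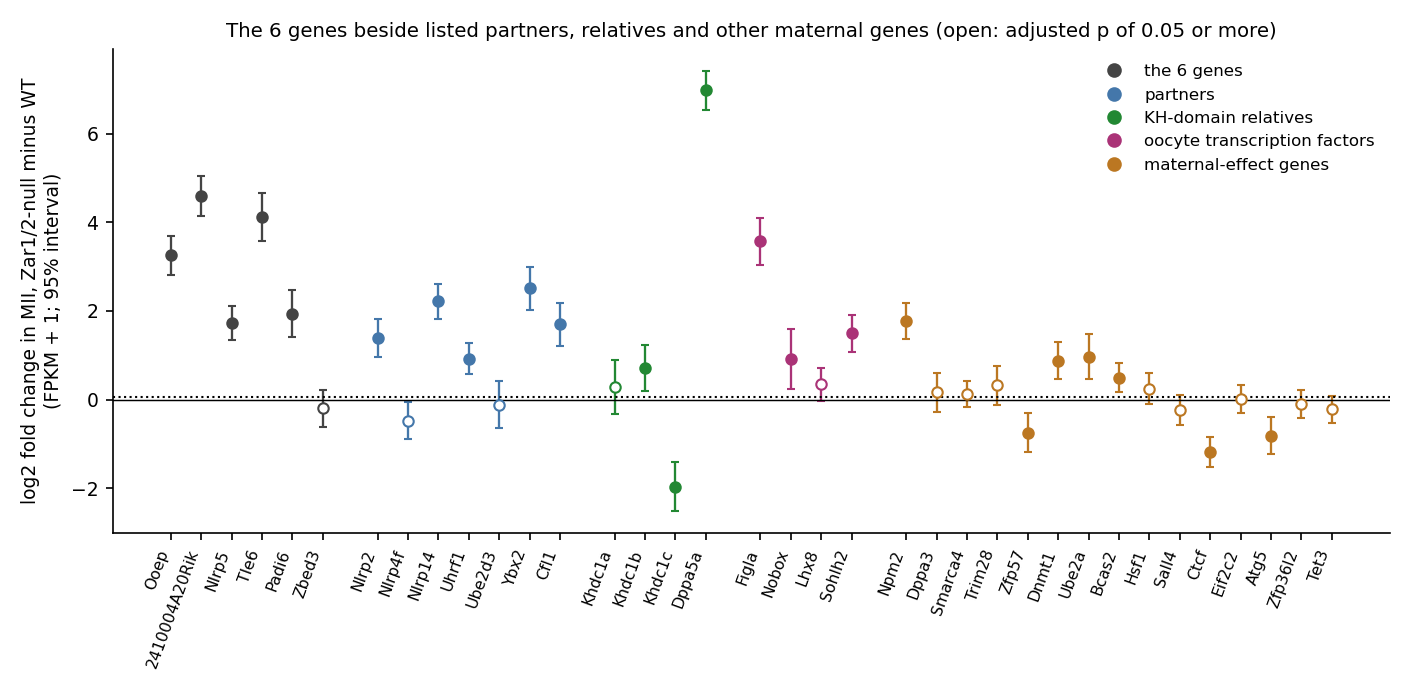
Log2 fold change of null against WT MII oocytes (vertical axis, with 95% interval) for the 6 genes and 4 lists of other genes. Filled points passed the test and the dotted line marks the median of all genes. Dppa5a reaches 6.97 and 2410004A20Rik (Khdc3) 4.59, while Zbed3, Nlrp4f and Ube2d3 lie below 0 with open points.

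The genes whose levels followed each member most closely were taken by the Pearson correlation of log2(FPKM + 1) over the 12 libraries, among 4272 genes whose mean reached 10 FPKM. These libraries share scaling factors and fall into 3 stages, so the values are a description only. Ooep was followed by Rpl39l, Mcee and Rpl35a (r = 0.999, 0.998 and 0.998), Khdc3 by Yipf1, Rai12 and Sumo3 (each r = 0.998) and Tle6 by Aldh7a1, Fam54b and Puf60 (r = 0.999, 0.996 and 0.996). Nlrp5 was followed by Lrrc41, Padi6 and Adprh (r = 0.995, 0.993 and 0.992) and Padi6 by Gle1, Adipor1 and Nlrp5 (r = 0.994, 0.994 and 0.993). Nlrp5 and Padi6 were the only pair of the 6 that stood in each other's closest 3, and the pair kept r = 0.977 without the ERCC factors. Zbed3 was followed less closely, by Tmem123, Rcc2 and Rab1b (r = 0.967, 0.957 and 0.953). Without the ERCC factors these fell to 0.399, 0.500 and 0.717. Gle1 with Padi6 also fell, to 0.403, and the lowest value among the remaining closest genes was then 0.914 (Rai12 with Khdc3). The correlation of Zbed3 with the other 5 ranged from 0.415 (Ooep) to 0.780 (Nlrp5) with the ERCC factors and from -0.739 (Khdc3) to -0.312 (Nlrp5) without them.

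The promoters, taken as 250 bases before to 50 after each RefSeq start in GRCm38.p6, were searched on both strands for the E-box CANNTG, for TAATTG or its variant TAGTTG, the letters NOBOX binds, and for the TATA box letters TATAAA. Every promoter of the 6 genes held at least 1 E-box, as did 72.3% of 32851 promoters. TAATTG was found in Ooep and Padi6 and TAGTTG in 1 of the 2 Nlrp5 promoters, where 8.0 and 6.59% of all promoters held them. TATAAA was found in 1 Nlrp5 and 1 Zbed3 promoter, against 13.6% of all. In Ooep, Khdc3 and Padi6 an E-box began exactly 78 bases before the start, as in 0.484% of all promoters, a position noticed after the search. These E-boxes are shown with 20 bases on each side, the E-box in capitals:
Ooep, chr9:78378641-78378686, minus strand: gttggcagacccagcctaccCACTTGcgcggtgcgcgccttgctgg
Khdc3, chr9:73102300-73102345, plus strand: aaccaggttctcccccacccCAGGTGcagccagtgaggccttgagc
Padi6, chr4:140742696-140742741, minus strand: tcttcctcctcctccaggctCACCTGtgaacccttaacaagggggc
CAGGTG in Khdc3 and CACCTG in Padi6 are the same E-box read on opposite strands, while Ooep held a different one, CACTTG. These coordinates are of GRCm38.p6 and are not those of the expression table.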

How the data were processed

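Oocytes of WT and Zar1/2-null females were sequenced at 3 stages, with 10 oocytes a library and 2 libraries in each of 6 groups; groups and replicate numbers are from the sample labels. The authors mapped trimmed reads of 50 bases against the mm9 genome (TopHat2 2.1.1 in the submitters' processing notes), kept those with a unique place, and derived FPKM values with Cufflinks 2.2.1 and UCSC gene models. The deposited FPKM values of 23230 genes were then multiplied by an ERCC factor relative to the WT growing library of the same number; these factors were recovered here from the digits of the values. The table holds no counts, so the counting error of a value is unknown, and only relative depth could be recovered.

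Genes that never reached 1 FPKM were left out, which kept 11502. On log2(FPKM + 1) values, limma 3.58.1 (R 4.3.3) was run with a term for each of the 6 groups, all 12 libraries and an intensity trend, with Benjamini-Hochberg adjustment over all kept genes and a threshold of 0.05; fold changes on this scale understate those of low genes. The script was tested on simulated data. Fold values are ratios of mean FPKM with means under 1 FPKM set to 1, and past 3-fold follows the rule of the study. Alternatives are given in the closing section. The 6 genes, the gene lists, the markers and the searched motifs were chosen with earlier results of these data known. The labels give 13.5 days for growing oocytes and the study's methods 12 days. Transcripts and loci are from GENCODE vM1, whose genome is mm9, with the coding transcript of the longest coding part for each gene; promoters are from RefSeq (GRCm38.p6), in which all 6 genes were matched, 2410004A20Rik as Khdc3. The 6 printed 3′ ends were equal to the genome at the coordinates given. Protein sequences were not used here.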

Additional observations from a re-analysis of the deposited data

Results flagged for a closer look

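For 6 results the effect of genotype differed between 2 stages by a test of the difference itself. The change from GV to MII was less negative in null than in WT oocytes by a log2 value of 3.68 for Ooep (SE 0.28), 5.21 for Khdc3 (SE 0.29), 2.03 for Nlrp5 (SE 0.24), 4.47 for Tle6 (SE 0.35) and 2.08 for Padi6 (SE 0.34), and these 5 differences passed with each of the 12 libraries left out in turn. The change from growing to GV was more negative in null for Zbed3 by -0.89 (SE 0.27, limma adjusted p = 0.049), which was lost in 10 of the 12 fits with 1 library left out. With 2 libraries a group, single libraries that stood apart within a group could not be looked for.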

How the results depend on the processing

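The calls of 5 higher genes in null MII oocytes, and of 5 genes with a different maturation change, were made under every alternative run. Other results depended on the scaling. Without the ERCC factors, log2 changes turned sign for null against WT in growing oocytes in Khdc3 (0.22) and Tle6 (0.25), and in GV oocytes in Ooep (0.0256), Nlrp5 (0.14), Tle6 (0.10) and Padi6 (0.32). They also turned for Zbed3 from growing to GV in WT (0.10), from GV to MII in WT (1.199) and in the difference of maturation (-0.24), for Ooep in the difference of growth (0.13), and from GV to MII in null for Ooep (0.38), Nlrp5 (0.45), Tle6 (0.34), Padi6 (0.40) and Zbed3 (0.96). With equal medians the same values were 0.16 and 0.19, then 0.10, 0.22, 0.18 and 0.40, then 0.0858, 1.94 and -0.44, then 0.26, and 0.91, 0.99, 0.87, 0.94 and 1.49, with Khdc3 at 0.11 in the last comparison. Of the 6 genes, 1 was then called higher in null growing oocytes under either scaling, 0 lower in null GV oocytes, and 1 lower in null MII oocytes (equal medians). From growing to GV 2 (equal medians) or 1 (no factors) were lower in WT, and 1 was higher in null under either, where the Zbed3 fall was lost with equal medians (-0.51, adjusted p = 0.066). From GV to MII 1 was higher in WT under either and 3 lower with equal medians. In null 5 were higher and 0 lower with equal medians, and 2 higher and 1 lower with no factors. With equal medians 12.2% of all genes were higher and 12.5% lower in null growing oocytes. These shares were 8.21 and 10.9% in null GV oocytes and 23.9 and 29.5% in null MII oocytes. From growing to GV they were 2.31 and 2.62% in WT and 17.1 and 16.8% in null. From GV to MII they were 37.6 and 35.0% in WT and 34.8 and 29.6% in null. Shares of all genes past 3-fold are given only with the ERCC factors. Past 3-fold, equal medians left 3 and no factors 4 higher in null at MII, equal medians gave 1 higher and 3 lower from GV to MII in WT, no factors gave 3 lower there, and both left 0 lower from growing to GV in null. With the factors of a group averaged, Ooep was called lower in null GV oocytes (-0.43, adjusted p = 0.040). Of the 18 closest genes 5 were shared without the factors.

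With no filter on low values, or only the compared libraries in the fit, 0 genes were lower in null GV oocytes and 2 lower from GV to MII in null. The Zbed3 difference in growth left 0 calls under these, both scalings, averaged factors, a mean of at least 5 FPKM and a pseudocount of 0.1 FPKM. Leaving out 1 library at a time gave 0 to 3 genes lower in null GV oocytes, 1 to 4 lower from growing to GV in WT, 2 to 5 lower from GV to MII in null and 0 to 1 in the difference of growth, and past 3-fold 4 to 5 higher in null at MII, 0 to 2 lower from growing to GV in null and 0 to 1 from GV to MII in null. Log2 changes that turned sign in these fits ranged from -0.30 to 0.21 (Tle6, null against WT, growing), -0.73 to 0.0177 (Tle6, GV), -0.39 to 0.12 (Padi6, GV), -0.00599 to 0.23 (Ooep, growing to GV, WT), -0.0673 to 0.22 (Ooep, null), -0.29 to 0.0811 (Zbed3, GV to MII, null), -0.18 to 0.10 (Ooep, difference of growth) and -0.69 to 0.0586 (Tle6, difference of growth). The cause was not tested.

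Each factor refers to the WT growing library of the same number, so the numbers enter the values. No source, however, says that a number marks a shared animal or day. The difference between the replicates of a group was taken for each gene. Correlations of these differences between groups, not of the library levels themselves, ran from -0.12 to 0.16. With the replicate number as a block, Ooep was called lower in null growing oocytes, the 1 such gene (-0.39, adjusted p = 0.028), and in null GV oocytes (-0.43, adjusted p = 0.016), Zbed3 passed in the difference of maturation (0.45, adjusted p = 0.036), and no other call on the 6 genes changed. A block with the null GV numbers crossed, chosen after seeing the data, gave 5205 lower and 351 higher genes in null GV oocytes, and Ooep lower among them (adjusted p = 0.035), against 4924 and 344 with the numbers as given and 4666 and 325 without a block. With no counts in the table, the counting error of low values such as Khdc3 in WT MII oocytes is unknown.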
